A study of Homo sapiens with 12 samples.

Results

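The 40 genes described here encode the machinery with which the endoplasmic reticulum (ER) takes in, folds and disposes of secreted and membrane proteins. They were listed by name rather than by any measured value, and comprise 11 luminal chaperones and their partners, 9 disulfide and proline isomerases, 4 sensors and membrane-bound factors of the unfolded protein response, 6 ER degradation genes and 10 translocon and signal peptidase genes. All 40 were among the 28278 genes of the deposited table, and 31 had enough counts to be tested, out of 8813 genes tested in all.

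The cells were OCI-Ly7, a diffuse large B-cell lymphoma line that the labels trace to a pleural effusion, grown without treatment. The groups, 4 in all, were sequenced by MARS-seq, a barcoded method that counts transcripts from their 3' ends: wild type (3 libraries), EZH2 Y646N (2 libraries), kmt2d-/- (3 libraries) and a double mutant, kmt2d-/- + EZH2 Y646N (3 libraries). All mutants were made by CRISPR on the OCI-Ly7 background, the labels call the EZH2 allele gain of function, and they do not say how many clones a mutant line holds. EZH2 is a histone methyltransferase linked to gene silencing and KMT2D one linked to enhancer activity. The labels name no separate cultures, so the p-values reflect only how far these samples differ among themselves, which may be technical, and a difference between lines cannot be told apart from one between clones.

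Proteins bound for secretion enter the ER through the SEC61 channel, lose their signal peptide, and fold with the help of chaperones such as HSPA5 (BiP) and calreticulin and of enzymes that form disulfide bonds. When unfolded protein builds up, the sensors IRE1 (gene ERN1), PERK (EIF2AK3) and ATF6 start the unfolded protein response, which raises chaperone genes, slows translation and speeds the removal of misfolded protein by ER-associated degradation. In the B lineage this programme is best known from antibody-secreting plasma cells, where it depends on the transcription factor XBP1, the product of IRE1-dependent splicing.

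Library totals ran from 1118710 to 3107871 counts, and the shallowest library was replicate 1 of the EZH2 mutant. The 40 genes had summed levels of 5952 to 6319 normalised CPM (counts scaled to a common library size) in wild type and of 5609 to 5676 in KMT2D-mutant cells. The sums were 9559 and 10771 CPM in the EZH2 mutant and 7746 to 8566 in the double mutant, so the 2 groups with mutant EZH2 lay above the other 2 without overlap. Such sums follow the most abundant genes and do not describe each member. Between wild type and the EZH2 mutant, mean CPM went from 914 to 2426 for CALR and from 924 to 1457 for P4HB. For HSP90B1 it went from 407 to 350. No matching sum was made for other genes. In bulk RNA a smaller number of cells of a type and less RNA per cell cannot be told apart. All 7 B-cell markers had counts in each line, and T and NK cell markers summed to 0 to 12.9 CPM per library. Of 8 plasma cell markers, SDC1 was at 0 throughout, and the list summed to 3280 to 3721 CPM in wild type, 2642 to 3054 in EZH2-mutant cells, 3244 to 3798 in KMT2D-mutant cells and 2551 to 2746 in cells with both mutations. These marker sums were scaled by library totals alone, without the further scaling factors applied to the ER genes. Those factors were 0.875 and 0.926 in the EZH2 mutant, 0.936 to 1.012 in the double mutant and 1.015 to 1.065 in wild type. Without them, the plasma cell list was lower in both groups with mutant EZH2 than in the other 2. Applying them would raise the EZH2-mutant sums relative to wild type. Whether that order holds on the scale of the ER genes was not tested, nor was the list's part in the results below. Levels of the edited genes cannot check the labels, since the counted 3' ends need not lie in the edited part; EZH2 ranged from 54.3 to 91.3 CPM and KMT2D from 19.5 to 65.6 CPM over the 11 libraries.

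Promoters of ER chaperone genes are known for the ER stress response element (ERSE), the element through which the response was linked to its target genes, so the exact matches are shown here for reading beside the values. RefSeq promoter windows (GRCh38.p14, 250 bases before to 50 after the start) were at hand for 37 of the 40 genes, all except DERL1, PDIA3 and SPCS1. Both strands were searched for ERSE, read as CCAAT, any 9 bases, then CCACG. It was found in 6 of the 37 promoters (16.2%) and in 22 of all 27305 promoters of the table (0.0806%). Each line gives the gene's strand, 5' to 3', with the ERSE in capitals and 15 bases on either side, or as many as the window holds. On the reverse strand the element reads CGTGG first.
HSPA5 (chr9:125241376-125241424): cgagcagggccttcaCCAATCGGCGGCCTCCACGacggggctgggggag
HSP90B1 (chr12:103930201-103930249): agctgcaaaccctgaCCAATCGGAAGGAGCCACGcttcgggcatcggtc
HSP90B1 (chr12:103930306-103930354): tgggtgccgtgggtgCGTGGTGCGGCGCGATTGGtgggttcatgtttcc
CALR (chr19:12938369-12938417): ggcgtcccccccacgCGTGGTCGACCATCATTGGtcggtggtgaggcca
CANX (chr5:179698763-179698811): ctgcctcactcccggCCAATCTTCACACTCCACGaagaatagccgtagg
CRELD2 (chr22:49918539-49918587): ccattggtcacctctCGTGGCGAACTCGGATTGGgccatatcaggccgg
ERO1B (chr1:236282168-236282208): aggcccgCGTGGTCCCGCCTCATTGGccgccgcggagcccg

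The shorter ERSE-II, read as ATTGG, any 1 base, then CCACG, stood in 3 of the 37 promoters (8.1%) and in 15 of all 27305 (0.0549%). HYOU1 held 2 of them, and the upstream one overlaps a TGACGTGG match (the core of the unfolded protein response element), which 0.795% of all promoters hold.
HYOU1 (chr11:119057365-119057405): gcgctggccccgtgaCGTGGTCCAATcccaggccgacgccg
HYOU1 (chr11:119057259-119057299): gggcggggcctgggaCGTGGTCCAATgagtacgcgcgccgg
SDF2L1 (chr22:21642099-21642139): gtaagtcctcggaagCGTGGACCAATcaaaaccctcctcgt
HERPUD1 (chr16:56932010-56932050): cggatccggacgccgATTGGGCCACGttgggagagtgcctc
The HSPA5 element lies at -66 to -48 from the start, and those of HSP90B1 at -194 to -176 and -89 to -71. A search for TGACGTCA, the core of the cyclic AMP response element, matched CREB3L2 alone among the 37 promoters, against 1.98% of all promoters. These matches describe letters and not bound sites, and the element was itself defined on genes of this kind.

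Against wild type, the EZH2 mutant had higher levels of calreticulin, of several partners of BiP, of 4 of the 5 tested isomerases and of 4 of the 8 tested translocon and signal peptidase genes, and lower levels of the degradation lectin EDEM1 and the sensor PERK. In edgeR's quasi-likelihood fit, adjusted by Benjamini-Hochberg over all 8813 genes (called where the adjusted p is below 0.05), 15 of the 31 tested members were higher and 3 lower, with 13 not called. Over all tested genes 17.1% were called higher and 15.1% lower. The median log2 fold change was 0.53 over the tested members and -0.04 over all tested genes. Among genes with a mean of at least 50 CPM, 14 of 19 members (73.7%) and 32.8% of 3194 genes were called higher, while 2 of the 19 (10.5%) and 12.1% of the genes were called lower. With upper-quartile scaling, which lowers the median gene by 0.16 on the log2 scale in this comparison (a shift of -0.16), the split was 13 higher and 5 lower. Of the 18 calls, 13 were kept under each of 19 alternative settings, and none changed direction.

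**Figure D1:**
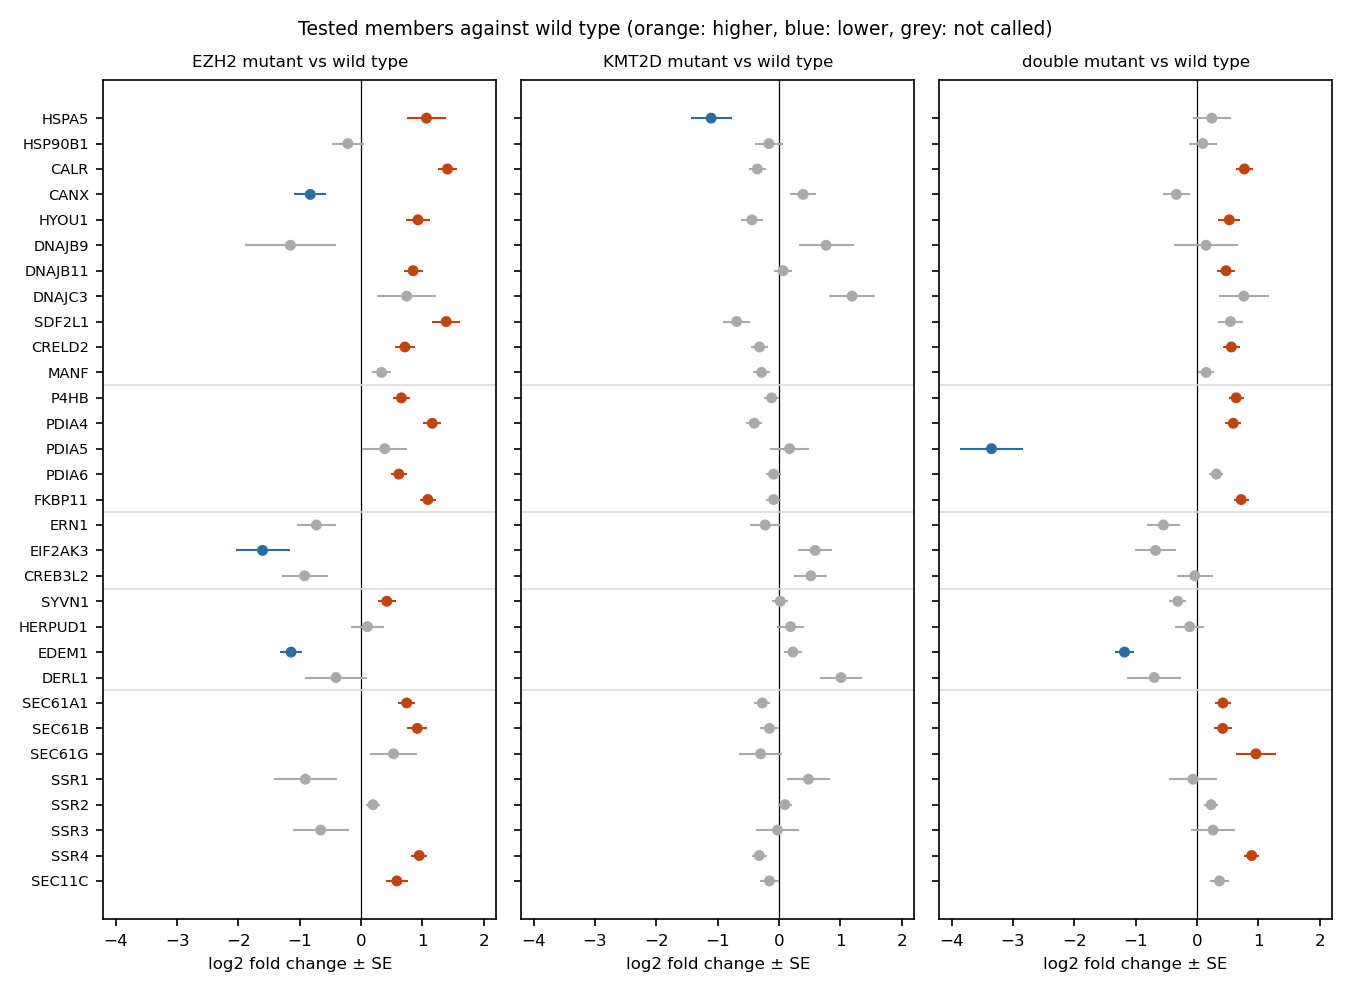
Log2 fold change ± SE (x axis) of the 31 tested members (y axis, grouped by role with grey lines between groups) in each mutant line against wild type, from edgeR. Orange points were called higher, blue lower and grey were not called: 15 and 3 in the EZH2 mutant, 0 and 1 in KMT2D-mutant cells, and 11 and 2 in the double mutant.

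Among the luminal chaperones and their partners, 6 of 11 were higher and 1 was lower in the EZH2 mutant. CALR encodes calreticulin, the soluble lectin chaperone of newly made glycoproteins. Its level was 946, 866 and 929.6 CPM in wild type, 2869 and 1983 in EZH2-mutant cells, 649, 776 and 721 in KMT2D-mutant cells, and 1586, 1714 and 1382 in cells with both mutations. The 4 lines did not overlap, with the EZH2 mutant highest and the KMT2D mutant lowest. CALR rose by 1.41 ± 0.15 (log2, SE) in the EZH2 mutant (adjusted p = 2.62e-06) and by 0.77 ± 0.14 in the double mutant (adjusted p = 0.000539), both against wild type. In the KMT2D mutant its change of -0.35 ± 0.14 was not called (adjusted p = 0.141).

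CANX encodes calnexin, the membrane-bound counterpart of calreticulin, and moved the other way. It stood at 63.4, 67.7 and 116 CPM in wild type, 38.9 and 52.1 in EZH2-mutant cells, 121, 111 and 93.8 in KMT2D-mutant cells, and 58.7, 57.4 and 80.2 in cells with both mutations. Both EZH2-mutant libraries lay below the wild-type range, by -0.83 ± 0.26 on the log2 scale (adjusted p = 0.0229). That call was lost in 3 alternatives, among them the fits without wild-type replicate 3 and without replicate 1 of the EZH2 mutant (adjusted p of at most 0.168 over the alternatives). In the double mutant, CANX was lower than in the KMT2D mutant by -0.73 ± 0.22 (adjusted p = 0.0122), and lost that call without KMT2D-mutant replicate 1 or double-mutant replicate 1 or 2.

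HSPA5 encodes BiP, the ER member of the HSP70 family and the regulator that holds the sensors inactive. Its values rested on few reads here, 8 to 39 counts per library. They were 12.4, 11.6 and 6.52 CPM in wild type, 23.6 and 19.4 in EZH2-mutant cells, 4.57, 5.37 and 4.21 in KMT2D-mutant cells, and 13.3, 8.31 and 13.4 in cells with both mutations. The EZH2 mutant lay above the other lines, the KMT2D mutant below them, and the double mutant overlapped wild type. HSPA5 was higher in the EZH2 mutant by 1.07 ± 0.32 (log2, adjusted p = 0.0166), a call lost without wild-type replicate 3 or EZH2-mutant replicate 1, with an adjusted p of up to 0.0851. In the double mutant its change against wild type, 0.24 ± 0.30, was not called (adjusted p = 0.605).

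Partners of BiP made up most of the other higher chaperone genes. SDF2L1, which works with the BiP co-chaperone DNAJB11, stood at 71.9, 96.2 and 107 CPM in wild type, 306 and 182 in EZH2-mutant cells, 55.1, 64.4 and 52.8 in KMT2D-mutant cells, and 134, 168 and 103 in cells with both mutations. DNAJB11 itself measured 57.1, 72.8 and 67.5 CPM in wild type, 122 and 117 in EZH2-mutant cells, 66.1, 69.8 and 72 in KMT2D-mutant cells, and 92.3, 98.2 and 85.4 in cells with both mutations. HYOU1, an HSP70-related chaperone that exchanges the nucleotide of BiP, had 66.2, 55.4 and 54.4 CPM in wild type, 118 and 105 in EZH2-mutant cells, 30.2, 52.4 and 49 in KMT2D-mutant cells, and 82.4, 76.3 and 93 in cells with both mutations. For all of these the EZH2-mutant libraries lay above those of every other line, and only for SDF2L1 did the double mutant overlap wild type. The log2 changes in the EZH2 mutant were 1.39 ± 0.23 for SDF2L1, 0.85 ± 0.16 for DNAJB11 and 0.93 ± 0.20 for HYOU1 (adjusted p = 0.000294, 0.000486 and 0.00165). CRELD2, a secreted ER stress protein, rose by 0.71 ± 0.16 (adjusted p = 0.00197).

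**Figure D2:**
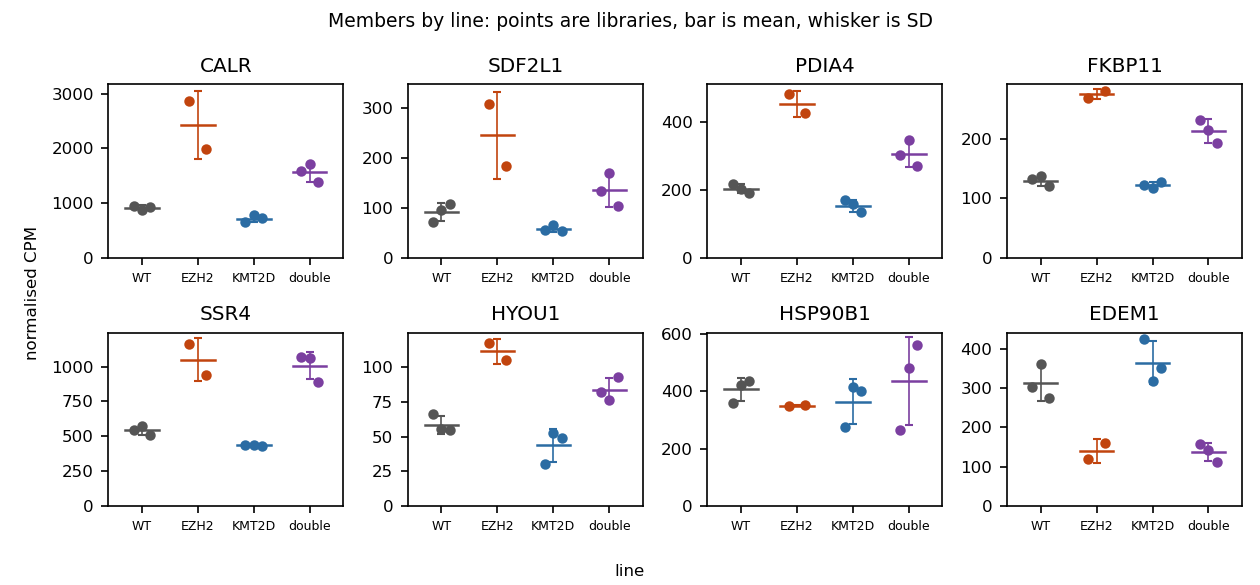
Normalised CPM (y axis, from 0) of 8 members in each library (points) by line (x axis; WT is wild type), with the mean (bar) and SD (whisker) of each line. CALR, PDIA4 and HYOU1 show no overlap between any of the 4 lines, the double-mutant libraries of HSP90B1 span the other lines, and EDEM1 is below the wild-type range in both lines with mutant EZH2.

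HSP90B1 (GRP94), the ER member of the HSP90 family, carried 2 ERSE matches and was not called in any comparison. It measured 359.8, 423 and 437 CPM in wild type, 348 and 352 in EZH2-mutant cells, 274, 416 and 402 in KMT2D-mutant cells, and 265, 479.6 and 561 in cells with both mutations. The double-mutant libraries spanned the ranges of all other lines, and the change in the EZH2 mutant was -0.22 ± 0.26 (log2, adjusted p = 0.553). MANF, a secreted ER stress factor (0.33 ± 0.15), DNAJC3 (0.74 ± 0.48) and DNAJB9 (-1.15 ± 0.74), both BiP co-chaperones, were also not called in the EZH2 mutant. Of the 9 genes with an ERSE or ERSE-II match, CALR, CRELD2, HSPA5, HYOU1 and SDF2L1 rose in the EZH2 mutant, CANX fell, HSP90B1 and HERPUD1 were not called, and ERO1B was not tested.

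Most tested isomerases were higher in the lines with mutant EZH2. In the EZH2 mutant, 4 of the 5 tested isomerases were called higher and none lower; PDIA3, TXNDC5, ERO1B and FKBP2 had too few counts to test, at most 7 in any library. PDIA4 (ERp72), a thiol isomerase with several catalytic domains, stood at 217, 201 and 191 CPM in wild type, 480.4 and 426 in EZH2-mutant cells, 169, 157 and 133 in KMT2D-mutant cells, and 302, 345 and 269 in cells with both mutations. P4HB, the founding protein disulfide isomerase, had 1021, 888 and 864 CPM in wild type, 1569 and 1346 in EZH2-mutant cells, 849, 859 and 841 in KMT2D-mutant cells, and 1591, 1435 and 1288 in cells with both mutations. FKBP11, a proline isomerase abundant in secretory cells, had 131, 137 and 119.6 CPM in wild type, 268 and 280.0 in EZH2-mutant cells, 121, 116 and 126 in KMT2D-mutant cells, and 231, 214 and 192 in cells with both mutations. All 3 genes lay above wild type in every library with mutant EZH2, and P4HB did not separate the EZH2 mutant from the double mutant. Against wild type the EZH2 mutant rose by 1.16 ± 0.14 for PDIA4 (adjusted p = 1.15e-05), 1.09 ± 0.13 for FKBP11 (1.19e-05), 0.66 ± 0.13 for P4HB (0.00117) and 0.61 ± 0.13 for PDIA6, another thiol isomerase (0.0012), on the log2 scale.

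Of the sensors, none was higher in the EZH2 mutant and PERK was lower. EIF2AK3 (PERK), the kinase that slows translation, had 10.2, 15.6 and 21.1 CPM in wild type, 2.05 and 6.95 in EZH2-mutant cells, 29.2, 22.2 and 19.9 in KMT2D-mutant cells, and 10.9, 6.8 and 11.6 in cells with both mutations. Both EZH2-mutant libraries lay below wild type, with 2 and 14 counts behind them. The change was -1.61 ± 0.44 (log2, adjusted p = 0.00903), a call lost without EZH2-mutant replicate 1 (adjusted p = 0.081). In the double mutant EIF2AK3 was lower than in the KMT2D mutant by -1.26 ± 0.31 (adjusted p = 0.00343), and its change of -0.68 ± 0.33 against wild type was not called (adjusted p = 0.144).

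ERN1 (IRE1), the kinase and nuclease that splices XBP1, measured 14.7, 12.6 and 14.6 CPM in wild type, 8.19 and 8.44 in EZH2-mutant cells, 10.4, 14.1 and 11.9 in KMT2D-mutant cells, and 9.38, 9.82 and 9.3 in cells with both mutations. The change in the EZH2 mutant, -0.73 ± 0.32, did not pass the test (adjusted p = 0.0852), nor did that in the double mutant, -0.55 ± 0.26 (adjusted p = 0.142). All 5 libraries with mutant EZH2 lay below all 6 without it, but how many of all tested genes separate this way was not computed. HSP90B1, PDIA5 and SSR2 also had no overlap between the EZH2 mutant and wild type, at adjusted p of 0.553, 0.44 and 0.229. CREB3L2, a membrane-bound transcription factor released by proteolysis, had 16.4, 39.8 and 23.4 CPM in wild type, 10.2 and 16.9 in EZH2-mutant cells, 47.5, 26.2 and 40.6 in KMT2D-mutant cells, and 23.2, 27.2 and 29.6 in cells with both mutations, and was not called in any comparison. ATF6, the sensor that is cut in the Golgi, had 2, 6 and 5 counts in wild type, 1 and 0 in EZH2-mutant cells, 5, 4 and 2 in KMT2D-mutant cells, and 4, 2 and 0 in cells with both mutations, too few to test.

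**Figure D3:**
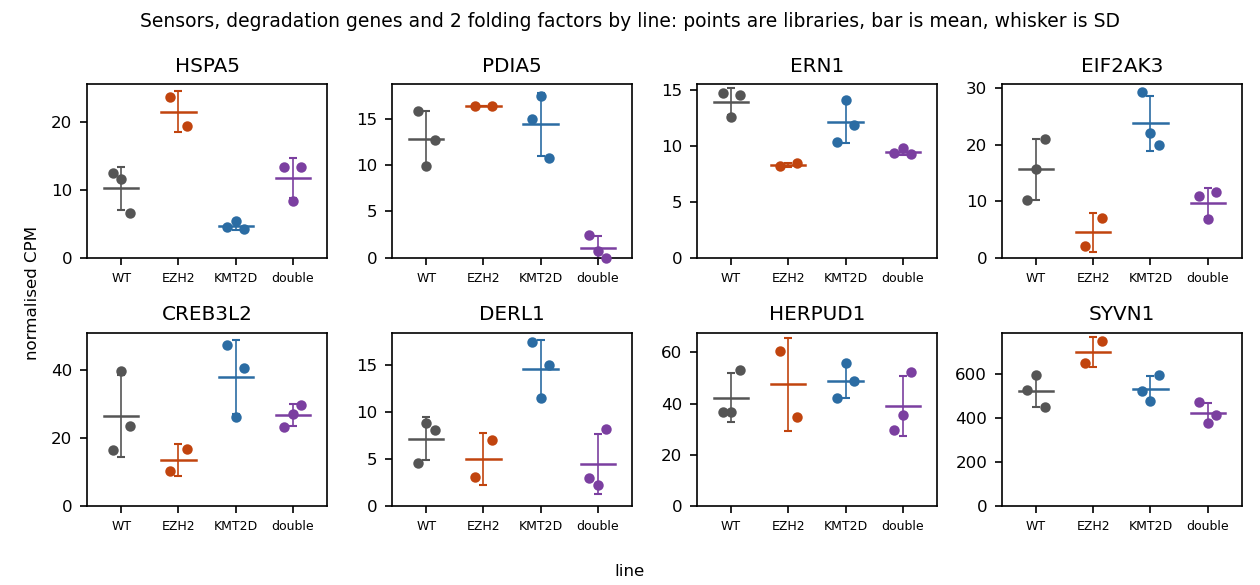
Normalised CPM (y axis, from 0) of 8 members in each library (points) by line (x axis), with the mean (bar) and SD (whisker) of each line. PDIA5 is at or below 2.47 CPM in the double mutant and at least 9.86 CPM elsewhere. ERN1 is lower in the 5 libraries with mutant EZH2 than in the other 6, though neither change against wild type was called.

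The degradation genes went different ways. EDEM1, a lectin that hands misfolded glycoproteins to degradation, stood at 302, 360.4 and 274 CPM in wild type, 119 and 161 in EZH2-mutant cells, 425, 317 and 352 in KMT2D-mutant cells, and 156, 144 and 113 in cells with both mutations. All 5 libraries with mutant EZH2 lay below all 6 others. EDEM1 fell by 1.14 ± 0.18 (log2) in the EZH2 mutant (adjusted p = 0.000144) and by 1.18 ± 0.16 in the double mutant (adjusted p = 2.87e-05), and by 1.41 ± 0.16 in the double mutant against the KMT2D mutant (adjusted p = 1.66e-06). These calls held under every alternative run.

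HERPUD1, a membrane scaffold of the degradation complex that carried an ERSE-II match, overlapped between lines. It had 36.8, 36.7 and 53.3 CPM in wild type, 60.4 and 34.7 in EZH2-mutant cells, 42.3, 55.7 and 48.6 in KMT2D-mutant cells, and 29.6, 35.5 and 52.3 in cells with both mutations. Its change in the EZH2 mutant was 0.10 ± 0.27 (log2, adjusted p = 0.795). SEL1L, the adaptor of the ubiquitin ligase, had 5, 6 and 6 counts in wild type, 1 and 1 in EZH2-mutant cells, 4, 2 and 13 in KMT2D-mutant cells, and 5, 2 and 2 in cells with both mutations and was not tested, like DERL2.

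SYVN1 (HRD1), the ubiquitin ligase itself, measured 527, 594 and 449 CPM in wild type, 650.4 and 746 in EZH2-mutant cells, 521, 474 and 594 in KMT2D-mutant cells, and 469.8, 378 and 414 in cells with both mutations. The EZH2 mutant was the highest line, and the double mutant lay below the EZH2 and KMT2D mutants. Its rise of 0.42 ± 0.15 (log2) in the EZH2 mutant had an adjusted p of 0.0372 and was lost in 13 of 19 alternatives, so it rests on the setting; among these were the fits without wild-type replicate 1 or 3, or without EZH2-mutant replicate 2. SYVN1 overlaps FAU, a ribosomal protein gene on the same strand in GENCODE 29 with 5079 to 12259 counts per library, against 500 to 1746 for SYVN1, and how the counting divided reads between them is not given in the sources used here.

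Translocon genes were higher in the EZH2 mutant in 4 of 8 tested cases, and none was lower. SSR4, a subunit of the translocon-associated protein complex, had 545, 574 and 512 CPM in wild type, 1159 and 939 in EZH2-mutant cells, 434, 436 and 433 in KMT2D-mutant cells, and 1069, 1059 and 893 in cells with both mutations. SEC61B, a small subunit of the channel, had 461, 499 and 406 CPM in wild type, 794 and 922 in EZH2-mutant cells, 452, 344 and 427 in KMT2D-mutant cells, and 751, 557 and 517 in cells with both mutations. For both genes, every library with mutant EZH2 lay above all others. SSR4 rose by 0.95 ± 0.13 (log2, adjusted p = 3.89e-05), SEC61B by 0.91 ± 0.16 (0.000359), the pore subunit SEC61A1 by 0.74 ± 0.14 (0.000656) and the signal peptidase subunit SEC11C by 0.58 ± 0.18 (0.0161) in the EZH2 mutant. The SEC11C call was lost in 5 alternatives, among them without wild-type replicate 2 or EZH2-mutant replicate 2 (adjusted p of up to 0.101). The other subunits of the SSR complex did not pass the test, at 0.19 ± 0.12 for SSR2, -0.66 ± 0.46 for SSR3 and -0.91 ± 0.51 for SSR1, and SPCS1 and SPCS2 of the signal peptidase had at most 4 counts in any library.

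In the KMT2D mutant, HSPA5 was the single member that passed the test. Of the 31 tested members 1 was lower and 0 were higher, where 4.48% and 3.18% of all tested genes were called. The median log2 fold change over the members was -0.09, against 0.00 over all tested genes. HSPA5 stood at -1.11 ± 0.33 (log2, adjusted p = 0.0473), and the call was lost in 11 of 19 alternatives, DESeq2 and the fits without any 1 of the KMT2D-mutant libraries among them (adjusted p of up to 0.198). SDF2L1 (-0.69 ± 0.22, adjusted p = 0.0627), PDIA4 (-0.40 ± 0.13, 0.0679), DNAJC3 (1.19 ± 0.37, 0.0553) and DERL1, a channel of the degradation pathway (1.01 ± 0.35, 0.085), came nearest to the threshold among the rest.

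In the double mutant, 4 of 11 chaperone genes, 3 of 5 tested isomerases and 4 of 8 tested translocon genes were called higher than in wild type, and PDIA5 was close to undetected. Against wild type, 11 of 31 members were called higher and 2 lower, where 12.1% and 11.6% of all tested genes were called. The median was 0.26 over the members and -0.01 over all tested genes. Among genes with a mean of at least 50 CPM, 10 of 19 members (52.6%) and 23.4% of 3194 genes were called higher. Lower calls at that level were 1 of the 19 (5.26%) and 8.8% of the genes. This comparison shares the wild-type libraries with the 2 before it. The increases were in SSR4 (0.89 ± 0.12), CALR, FKBP11 (0.72 ± 0.12), P4HB (0.64 ± 0.12), PDIA4 (0.59 ± 0.13), CRELD2 (0.56 ± 0.14), HYOU1 (0.53 ± 0.18), DNAJB11 (0.47 ± 0.14), SEC61A1 (0.42 ± 0.13), SEC61B (0.42 ± 0.15) and SEC61G, the smallest channel subunit (0.96 ± 0.33). The first 6 of these kept their call in all 19 alternatives. HYOU1, DNAJB11, SEC61A1, SEC61B and SEC61G lost theirs in 13, 9, 6, 15 and 11 of them, each in the fits that left out wild-type replicate 3 or double-mutant replicate 1. The split was 6 higher and 3 lower with upper-quartile scaling, which shifts the median gene by -0.11 here, and 6 were called higher without double-mutant replicate 1.

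Set against the EZH2 mutant directly, the double mutant had 4 members lower and 0 higher, where 1.58% and 0.715% of all tested genes were called. PDIA5 was lower by -3.73 ± 0.56, SYVN1 by -0.73 ± 0.15, CALR by -0.64 ± 0.15 and PDIA4 by -0.57 ± 0.14 on the log2 scale (adjusted p = 0.000478, 0.00964, 0.0301 and 0.0389). CALR and PDIA4 lost this call without EZH2-mutant replicate 1, the shallowest library, and in 6 and 9 of 19 alternatives in all, with an adjusted p of up to 0.378 and 0.209. SYVN1 lost it without EZH2-mutant replicate 2 or double-mutant replicate 2 (up to 0.0756). For SSR4 (-0.06 ± 0.13), P4HB (-0.02 ± 0.14) and EDEM1 (-0.04 ± 0.18), the difference between these lines was small beside its SE.

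The double mutant against the KMT2D mutant is a second comparison of lines with and without mutant EZH2. It shares no library with the EZH2 mutant against wild type, but both come from the same fit, with a shared estimate of the spread. In this second comparison 16 of 31 members were called higher and 5 lower, where 21.2% and 20.8% of all tested genes were called. The medians were 0.41 and -0.02. Among genes with a mean of at least 50 CPM, 14 of 19 members (73.7%) and 38.9% of 3194 genes were called higher. Lower calls at that level were 2 of the 19 (10.5%) and 13.3% of the genes, and the medians were 0.57 and 0.24. With the abundance trend removed, 11 members were higher and 6 lower, and the member median was 0.18. Upper-quartile scaling gave 12 higher and 6 lower, with the median gene shifted by -0.15. SSR4 rose by 1.21 ± 0.12 (log2, adjusted p = 4.25e-07), CALR by 1.13 ± 0.14 (4.8e-06), PDIA4 by 0.99 ± 0.13 (1.02e-05) and HSPA5 by 1.35 ± 0.34 (0.00393). HYOU1 (0.97 ± 0.19), SDF2L1 (1.24 ± 0.22), CRELD2 (0.88 ± 0.14), FKBP11 (0.81 ± 0.12) and P4HB (0.76 ± 0.12) were also higher.

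Of the 15 members called higher in the EZH2 mutant against wild type, 14 were called higher in the double mutant against the KMT2D mutant (93.3% of the first list and 87.5% of the second), SYVN1 being the exception. Over all tested genes, 1081 were higher in both, 71.5% of the first list and 58% of the second. That overlap was not computed among genes of at least 50 CPM. Such genes were called higher more often than all tested genes, 32.8% and 38.9% in the 2 comparisons. The 3 members lower in the EZH2 mutant, CANX, EDEM1 and EIF2AK3, were lower in both, and the 5 lower in the double mutant also held PDIA5 and DERL1. DERL1 had 17.4, 11.4 and 14.9 CPM in KMT2D-mutant cells and 2.96, 2.27 and 8.14 in the double mutant (-1.71 ± 0.40, adjusted p = 0.00229). Wild type, at 4.53, 8.84 and 8.05 CPM, overlapped the double mutant.

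**Figure D4:**
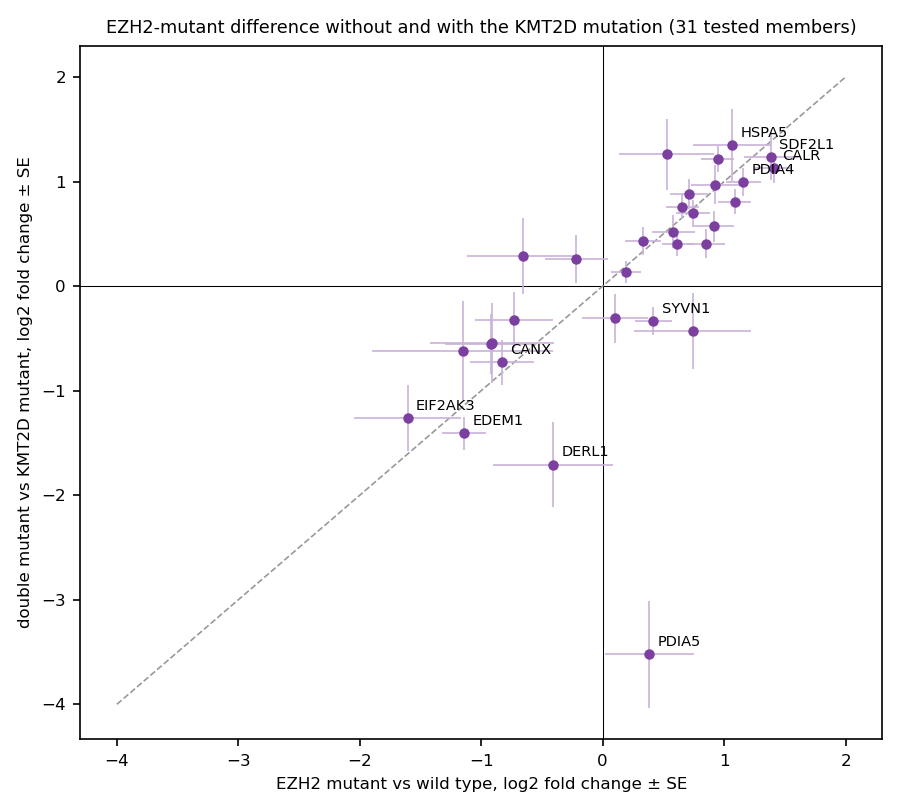
Log2 fold change ± SE of the 31 tested members in the EZH2 mutant against wild type (x axis) and in the double mutant against the KMT2D mutant (y axis), which share no library; the dashed line marks equal values. CALR, SDF2L1, PDIA4 and HSPA5 lie at the upper right, EDEM1, EIF2AK3 and CANX at the lower left, and PDIA5 far below the line at 0.38 and -3.52.

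The difference between these 2 EZH2 changes, the interaction of the mutations, was called for 2 members, both lower, where 1.52% of all tested genes were called lower and 1.5% higher. PDIA5, an isomerase of the disulfide family reported to act on ATF6, had 28, 29 and 33 counts in wild type, 16 and 33 in EZH2-mutant cells, 49, 26 and 28 in KMT2D-mutant cells, and 5, 1 and 0 in cells with both mutations. As levels these were 15.8, 9.86 and 12.7 CPM in wild type, 16.4 and 16.4 in EZH2-mutant cells, 14.9, 17.5 and 10.7 in KMT2D-mutant cells, and 2.47, 0.755 and 0 in cells with both mutations. The double mutant lay below every other library, while the KMT2D mutant overlapped wild type and both EZH2-mutant libraries lay just above it, a change that was not called (0.38 ± 0.37, adjusted p = 0.44). PDIA5 was lower in the double mutant by -3.35 ± 0.52 against wild type (log2, adjusted p = 0.000129) and by -3.52 ± 0.51 against the KMT2D mutant (2.78e-05), and the interaction was -3.91 ± 0.65 (0.0016). These calls held under every alternative run. The SYVN1 interaction, -0.75 ± 0.20 (adjusted p = 0.0461), was lost in 9 of 18 alternatives, 7 of them fits without 1 library.

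PDIA5 lies on chromosome 3, and none of the 5 nearest tested genes on either side was called lower in the double mutant against wild type. Nearest to it, HSPBAP1 changed by -0.27 ± 0.33 (adjusted p = 0.599) and HACD2 by -0.46 ± 0.31 (0.298). Further out, FAM162A was called higher at 2.69 ± 0.75 (0.0136), and DTX3L, with 2 counts summed over the double-mutant libraries, was at -1.90 ± 0.97 (0.165) and was called lower against the KMT2D mutant (-3.06 ± 0.84, 0.00649). SEC22A, which overlaps PDIA5 on the same strand in GENCODE 29, had 2 to 16 counts per library and was not tested. These neighbours were looked at after the value of PDIA5 was seen, and a genomic change at the gene itself in the clone used was not tested.

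**Figure D5:**
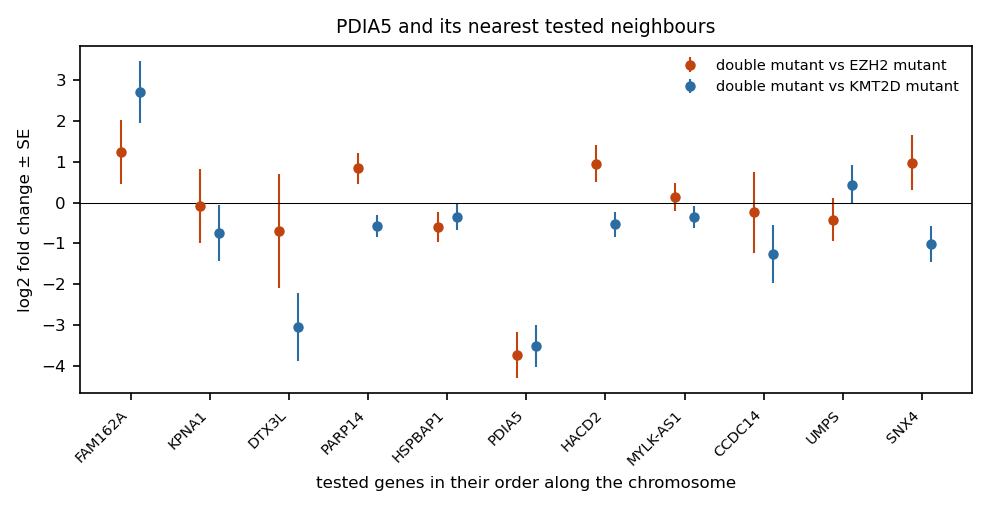
Log2 fold change ± SE (y axis) of PDIA5 and the 5 nearest tested genes on each side, in their order along chromosome 3 (x axis, not to scale), in the double mutant against the EZH2 mutant (orange) and the KMT2D mutant (blue). PDIA5 is at -3.73 and -3.52, and the genes next to it, HSPBAP1 and HACD2, lie between -0.60 and 0.96.

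XBP1, ATF4 and DDIT3, the best known transcription factors of the response, were not called higher in any comparison. XBP1 had 342, 353 and 531 CPM in wild type, 366 and 367 in EZH2-mutant cells, 481, 505 and 476 in KMT2D-mutant cells, and 326, 359.5 and 404 in cells with both mutations. Its changes against wild type were -0.16 ± 0.17 in the EZH2 mutant, 0.25 ± 0.15 in KMT2D-mutant cells and -0.17 ± 0.15 in the double mutant, none called, and 3' end counts do not tell spliced from unspliced XBP1. ATF4, the factor translated after PERK acts, was not called in any comparison (-0.38 ± 0.15 in the EZH2 mutant, adjusted p = 0.0558). DDIT3 (CHOP), a stress target of ATF4, had 82, 60.9 and 64.8 CPM in wild type and 32.8 and 37.2 in EZH2-mutant cells, lower by -0.96 ± 0.19 (log2, adjusted p = 0.000894). DDIT3 stood at 88, 87.3 and 91.5 CPM in KMT2D-mutant cells, and at 51.3, 58.2 and 51.1 in cells with both mutations.

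Of 12 tested sensors and transcription factors of the response outside the 40 genes, 1 was higher and 3 were lower in the EZH2 mutant. Of all tested genes, 17.1% were called higher and 15.1% lower there. Besides DDIT3 the lower ones were TRIB3 (-0.53 ± 0.15), a target of ATF4 and CHOP, and PPP1R15A (-0.86 ± 0.26), the phosphatase subunit that reverses the effect of PERK; CREB3, a membrane-bound factor, was higher (0.50 ± 0.19). In the double mutant against wild type, 1 of the 12 was higher (CREB3, 0.59 ± 0.16) and 0 were lower, where 12.1% and 11.6% of all tested genes were called. Against the KMT2D mutant, 3 of the 12 were higher and 3 lower in the double mutant, where 21.2% and 20.8% were called. PPP1R15A was also lower in the KMT2D mutant (-1.01 ± 0.22, adjusted p = 0.00541), and its interaction term was 2.14 ± 0.34 (adjusted p = 0.000925).

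Further genes of the same compartment, listed by function, were more mixed. In the EZH2 mutant 8 of 19 other degradation genes were higher and 2 lower, led by UFD1 (0.95 ± 0.15) and VCP (0.67 ± 0.13), which extract proteins from the membrane, and the membrane protein UBAC2 (0.92 ± 0.19). The ER ubiquitin-conjugating enzyme UBE2J1 was the other way, at -2.26 ± 0.47 (adjusted p = 0.0013), named after its value was seen. Of 24 other translocon and targeting genes 6 were higher and 3 lower; SRP14 (0.61 ± 0.12) and SRP9 (-1.25 ± 0.20), partners in the signal recognition particle, moved in opposite directions. Of 21 other folding factors 3 were higher, among them PRDX4 (0.71 ± 0.17), a peroxidase that passes on oxidising power, and 2 were lower, the oxidoreductases TMX4 (adjusted p = 0.000377) and QSOX1 (-0.91 ± 0.24). Of 11 tested oligosaccharyltransferase subunits 4 were higher, including DDOST (0.53 ± 0.14) and RPN1 (0.65 ± 0.18), and 1 was lower. Of 18 genes of export from the ER 3 were higher and 1 was lower. The higher ones were SEC13 (0.70 ± 0.12) and SEC24C (0.70 ± 0.14) of the COPII coat and the cargo receptor SURF4 (0.57 ± 0.13). In the order given, the list medians were 0.22, 0.12, 0.11, -0.19 and -0.12 (log2). The median over all tested genes was -0.04.

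In the double mutant against wild type the counts were 4 higher and 2 lower for degradation, 2 and 1 for targeting, 1 and 4 for folding, 3 and 0 for the oligosaccharyltransferase and 2 and 0 for export. In the KMT2D mutant they were 0 and 1, 0 and 0, 1 and 0, 0 and 0, and 1 and 1 in the same order. For the double mutant against the KMT2D mutant they were 7 and 4, 5 and 2, 2 and 4, 4 and 0, and 4 and 4. As with the 40 genes, each count stands beside the share of all tested genes called higher and lower in its comparison. Against wild type these shares were 17.1% and 15.1% in the EZH2 mutant, 12.1% and 11.6% in the double mutant, and 3.18% and 4.48% in the KMT2D mutant. For the double mutant against the KMT2D mutant they were 21.2% and 20.8%.

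Several members share their locus with other genes, which bears on counts made without a stated strand. In GENCODE 29 (GRCh38), 18 of the 40 overlap another protein-coding gene, 15 on the opposite strand and 6 on the same strand. DNAJB11 overlaps TBCCD1, which had 31 to 79 counts per library against 101 to 235 for DNAJB11, and SEC61A1 overlaps RUVBL1 (218 to 509 counts against 292 to 694). SSR4 overlaps IDH3G (136 to 357 against 649 to 2167). The untested PDIA3, at 1 to 7 counts, overlaps ELL3 on the opposite strand, which had 101 to 532. For CRELD2, PDIA6, FKBP11 and CANX the overlapping named genes had at most 6 counts in any library, and HSPA5 overlaps no annotated gene. FKBP11 also overlaps AC073610.3 and AC073610.2 on its own strand, and DNAJB11 overlaps AC068631.2 on its own. These had no row under those names in the deposited table, so their counts are not known.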

How the data were processed

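The deposited table holds counts per gene from MARS-seq of total RNA, per the labels. Per the submitters' processing notes, the tools were STAR 2.7.0f, cutadapt 1.15, Trim Galore 0.6.0 and FastQC, with DESeq2 named but given no role. The deposited counts are called corrected, with no reason stated, and the counter, build, annotation and strand are not given in the sources used here. Columns marked DM were read as the double mutant. The series lists 12 samples; the third EZH2-mutant sample had no column and was not analysed here.

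Genes were filtered with filterByExpr (minimum count 10), scaled by TMM and fitted in edgeR 4.0.16 (R 4.3.3) with a robust quasi-likelihood model of 1 term per line over all 11 libraries, with Benjamini-Hochberg adjustment per comparison and a threshold of 0.05. In all, 6 comparisons were made. Alternatives were DESeq2 1.42.0, other scaling, no filter, fewer groups, a replicate term, trends removed and each library left out. The fit was tested on simulated data, where the median estimate of 2-fold changes was close to the planted value but those of low genes were often missed. Smaller changes were also planted, and their recovery is not reported here. The pass mark was reset to the median estimate and the recovery of well-counted genes after a first, stricter one failed.

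Values per library are given for 12 preset genes and up to 6 called members with the smallest adjusted p in each comparison; CANX, DERL1 and the neighbours of PDIA5 were added after their values were seen. Other genes come from preset lists. Members and lists were chosen with earlier results of these data known. Promoter windows are RefSeq's, gene places GENCODE 29's; their build is not matched to that of the counts.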

Additional observations from a re-analysis of the deposited data

Results flagged for a closer look

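The EZH2 change differed with the KMT2D state for 2 members by the interaction test. PDIA5 had an interaction of -3.91 ± 0.65 (log2, SE; edgeR adjusted p = 0.0016), with 5, 1 and 0 counts in the double mutant and 16 to 49 in the other libraries. SYVN1 had -0.75 ± 0.20 (adjusted p = 0.0461), a call lost in 9 of 18 alternatives. It shares its locus with the far more counted FAU.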

How the results depend on the processing

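Counts of members called higher and lower kept within 1.5 times of the values reported, except as follows. With upper-quartile scaling, 5 were lower in the EZH2 mutant, 1 higher and 0 lower in the KMT2D mutant, 6 higher in the double mutant against wild type and 1 lower in the interaction. Over all tested genes that scaling took the share of calls that were higher from 53.1% to 36.6% in the EZH2 mutant and from 51.2% to 35.6% in the double mutant against wild type. With no filter, 1 was higher and 4 lower in the KMT2D mutant and 8 lower in the double mutant against the KMT2D mutant. With only the groups compared, 2 were higher and 2 lower in the KMT2D mutant and 2 lower in the double mutant against the EZH2 mutant. DESeq2 and the fit with the abundance trend removed each called 7 higher in the double mutant against wild type. The cause was not tested. No named call reversed under any setting run. Removing GC and abundance trends together, chosen after the data were seen, moved no count by more than that margin.

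Leaving out 1 library at a time gave 13 to 15 higher and 1 to 4 lower in the EZH2 mutant (1 without EZH2-mutant replicate 1), 0 to 2 higher and 0 to 3 lower in the KMT2D mutant, and 6 to 13 higher and 2 to 3 lower in the double mutant against wild type. It gave 2 to 5 lower in the double mutant against the EZH2 mutant, 12 to 16 higher and 4 to 7 lower against the KMT2D mutant, and 1 to 2 lower in the interaction.

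Libraries with the same replicate number did not all deviate together (correlations of -0.29 to 0.38), so the numbers were not taken as pairs. Wild type and the EZH2 mutant correlated at 0.376 and 0.216, and the KMT2D and double mutants at 0.287, 0.206 and 0.0662. Pairs of other lines ran from -0.289 to 0.233. With the replicate block, 14 members were higher and 2 lower in the EZH2 mutant, with CANX among the calls lost, 0 members were lower in the KMT2D mutant, 2 lower in the double mutant against the EZH2 mutant, and 1 in the interaction. At these totals 3 counts are 0.965 to 2.68 CPM, which limits ATF6, SEL1L and the other 7 untested members.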
